A study of Mus musculus with 32 samples.

Results

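Immune checkpoint ligands and regulatory receptors were followed as 10 named genes, the rows of the deposited count table whose Ensembl identifiers map to Cd274, Pdcd1lg2, Vsir, Lgals9, Fgl2, Havcr2, Lilrb4a, Pirb, Sirpa and Tarm1. They are 10 of the 56953 genes in the table and were chosen by name, with earlier results of these data known. A filter on low counts kept 14427 genes, among them 9 of the 10. Pdcd1lg2 was too low to pass, and Tarm1 passed through the groups given LPS, in which it is high.

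Checkpoint ligands are proteins that macrophages and other antigen-presenting cells show to T cells, where they bind inhibitory receptors and damp activation. The best known is PD-L1, the product of Cd274, which binds PD-1 and is induced by interferons and by bacterial products. Macrophages also carry inhibitory receptors of their own, among them the products of Pirb, Lilrb4a and Sirpa, whose cytoplasmic tails recruit tyrosine phosphatases and raise the threshold for activation or phagocytosis.

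RNA was sequenced from mouse bone marrow-derived macrophages, cells grown out of femur and tibia marrow in medium with L929 supernatant as the source of M-CSF. The 2 genotypes were crossed with 4 treatments of 24 h, namely no agent (control), 100 nM of dexamethasone, a synthetic glucocorticoid, 100 ng of LPS, the lipopolysaccharide of bacterial walls, for which the labels give no volume, or both agents. Each of the 8 groups had 4 libraries, 32 in all. The design text names how glucocorticoids act against inflammation in such LPS-treated cells as the question, and adds cells without Irg1 under the same treatments.

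WT stands for libraries labelled Acod1 wild type and KO for libraries labelled Acod1 knockout throughout. Acod1, also called Irg1, encodes the enzyme that makes itaconate. The strain background is given as C57BL/6J for every library, and the donors were 8 to 12 weeks old, bought as C57BL/6J or as Irg1+/+ and Irg1-/- mice. The labels do not say which source gave which WT library, whether replicates came from separate mice, or which part of Acod1 the allele removes. The p-values therefore cover only how these libraries vary, which may be technical in part. With LPS, Acod1 was counted at 6483 ± 249 CPM in WT libraries and at 4995 ± 133 CPM in those labelled KO, so transcript reads over the whole gene do not check the KO label.

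Libraries held 17559079 to 25049200 assigned read pairs. One library, WT LPS replicate 3, stood apart over the whole transcriptome: the chi-square of its counts against each other library of its group was 16.1 to 16.7 per degree of freedom, against 2.01 to 5.57 in the other 45 pairs of replicates. Of 54 changes of the 9 tested members that use it 51 kept their direction and their call without it, and the 3 others were Sirpa for LPS in WT and Tarm1 for KO against WT with LPS, both lost, and the Lilrb4a difference of the dexamethasone effects in WT, which became called. The values without it stand beside those with it below. Macrophage markers were abundant in every library, with a summed level of 17800 to 32100 CPM over 14 genes, lowest in WT with LPS (17800 to 19700 CPM), and none of the 14 was at 0 in every library. Lyz2 was the highest of them in every group and itself fell with LPS in WT (log2 fold change -1.34 ± 0.043), so the sum is no measure of cell number. Summed B cell markers ranged from 0.17 to 107 CPM, most of it Ighm, and were highest without LPS. Neutrophil markers ranged from 11.1 to 98.9 CPM, mast cell markers from 0.202 to 25.8 CPM and dendritic cell markers from 0.877 to 17.4 CPM. The highest gene in every group was Mmp8 for neutrophils and Kit for mast cells. For dendritic cells it was Siglech in control, Flt3 with dexamethasone and Ccr7 with LPS. In WT, dexamethasone alone gave 2.65 ± 0.080 for Mmp8, -3.43 ± 0.15 for Kit and 8.43 ± 0.35 for Flt3 on the log2 scale, and LPS 8.33 ± 0.36 for Ccr7. T and NK cell markers ranged from 0.0489 to 4.96 CPM. Of 12 T and NK cell markers 4 were at 0 in every library. The part of such cells in the results below was not tested. All 16 WT libraries were sequenced in lane 3, as were the KO control and dexamethasone libraries except 1 in lane 2 and 1 merged, while all 8 KO libraries with LPS were in lane 2. A KO against WT difference in the presence of LPS and the lane therefore cannot be told apart, except through the 1 lane 2 library without LPS, a KO library with dexamethasone. Every value given below with a lane term rests on that library, and the merged library is left out of that fit. The effect of dexamethasone on LPS-treated cells lies within 1 lane in each genotype.

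Levels are given in CPM, counts relative to library size after TMM scaling, as the 4 libraries in order of replicate number and as mean ± SD (n = 4). Changes are log2 fold changes ± SE from the quasi-likelihood model of edgeR over all 14427 genes. A gene counts as called when its p, adjusted by Benjamini-Hochberg over all of them, is under 0.05. In whole cultures, fewer cells that express a gene and less RNA per cell cannot be told apart.

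The sequence just before the start of each gene was read from RefSeq (GRCm38.p6) for the 8 members that have an entry there, all but Lilrb4a and Sirpa. The 250 bases before the start of 4 members are shown, because Cd274 and Tarm1 had the largest falls when dexamethasone was added to LPS in WT while Lgals9 and Fgl2, a further pair of ligands, moved in opposite directions when dexamethasone was added to LPS. Capitals mark matches to 8 short motifs searched on both strands, and the last base lies next to the start. The stretches lie at chr19:29367188-29367437 on the plus strand for Cd274, chr7:3502625-3502874 on the minus strand for Tarm1, chr11:78984925-78985174 on the minus strand for Lgals9 and chr5:21372423-21372672 on the plus strand for Fgl2.
Cd274: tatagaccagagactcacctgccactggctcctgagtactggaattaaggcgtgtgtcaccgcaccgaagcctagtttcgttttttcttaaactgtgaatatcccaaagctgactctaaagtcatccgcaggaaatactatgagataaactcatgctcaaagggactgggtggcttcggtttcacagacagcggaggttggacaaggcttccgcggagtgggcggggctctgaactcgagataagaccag
Tarm1: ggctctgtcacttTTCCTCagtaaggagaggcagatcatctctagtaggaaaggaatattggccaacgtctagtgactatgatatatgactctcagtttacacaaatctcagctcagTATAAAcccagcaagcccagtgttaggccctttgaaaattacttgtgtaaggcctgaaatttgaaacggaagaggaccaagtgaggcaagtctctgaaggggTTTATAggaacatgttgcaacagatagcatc
Lgals9: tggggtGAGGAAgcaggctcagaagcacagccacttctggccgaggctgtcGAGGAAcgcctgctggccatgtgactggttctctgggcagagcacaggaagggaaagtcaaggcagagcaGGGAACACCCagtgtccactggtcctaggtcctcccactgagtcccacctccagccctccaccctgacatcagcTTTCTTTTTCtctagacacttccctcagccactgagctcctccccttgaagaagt
Fgl2: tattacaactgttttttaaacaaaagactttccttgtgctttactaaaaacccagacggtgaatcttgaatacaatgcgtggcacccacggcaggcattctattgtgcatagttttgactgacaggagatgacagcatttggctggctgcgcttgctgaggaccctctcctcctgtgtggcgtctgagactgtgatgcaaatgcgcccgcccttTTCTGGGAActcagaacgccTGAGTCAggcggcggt

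The motifs were the interferon-stimulated response element core (GAAA and GAAA with any 2 bases between), the interferon-gamma-activated site TTCNNNGAA, the NF-kappaB site (GGG and CC with any 5 bases between), the glucocorticoid response element (G, any base, ACA, any 3 bases, TGT, any base, C), the AP-1 site TGANTCA, the PU.1 core GAGGAA, the C/EBP site TTGCNNAA and the TATA box TATAAA. None of the 8 matched in the 250 bases of Cd274 or of Vsir. The Lgals9 stretch held an interferon-stimulated core on the minus strand with its first base 55 bases before the start, an NF-kappaB match and a pair of PU.1 cores. The Fgl2 stretch held an interferon-gamma-activated site 36 bases and an AP-1 site 16 bases before the start. Tarm1 held a PU.1 core and a pair of TATA boxes, 1 of them 31 bases before the start on the minus strand. Among 32851 mouse promoter windows of the same length, 2.98% held the interferon-stimulated core, 7.02% the interferon-gamma-activated site, 45.8% the NF-kappaB site, 0.387% the glucocorticoid element, 6.75% AP-1, 23.3% PU.1, 9.56% C/EBP and 12.4% the TATA box. In the other members, Pirb held 3 NF-kappaB matches, of which 2 overlap each other and the other overlaps a PU.1 core, beside 3 PU.1 cores; Pdcd1lg2 held an NF-kappaB match and a PU.1 core, and Havcr2 an AP-1 site and a PU.1 core. A match describes letters in the sequence and no binding was measured.

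**Figure D1:**
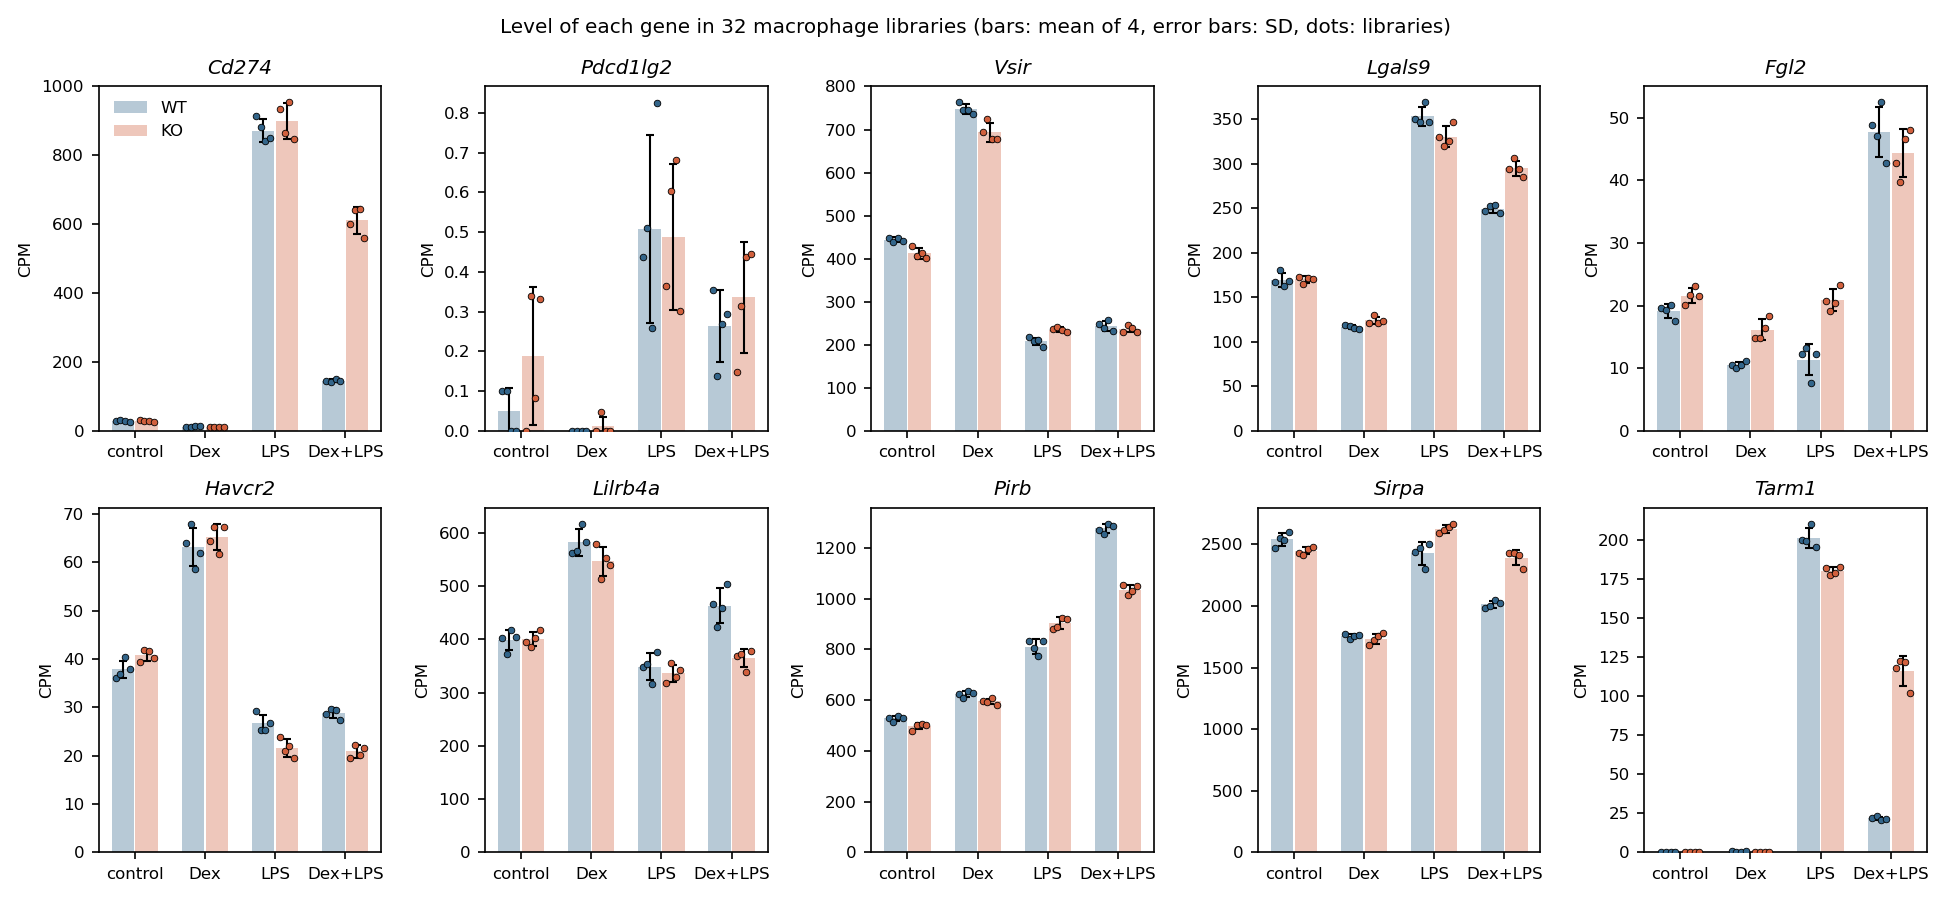
Level of each of the 10 members in CPM (linear axes that start at 0, 1 scale per gene) by treatment and genotype; bars are means of 4 libraries, error bars SD and dots libraries. Cd274 and Tarm1 stand highest in the groups with LPS, with the WT dexamethasone plus LPS group well below the KO group, and Pdcd1lg2 stays under 1 CPM in every library.

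Cd274, the gene for PD-L1, was the ligand with the widest range. In WT macrophages the 4 libraries held 29.2, 30.8, 27.8 and 25.3 CPM without treatment, 11.1, 10.9, 13.96 and 12.8 CPM with dexamethasone, 913, 881, 841 and 852 CPM with LPS and 144, 142, 152 and 144 CPM with both. No pair of these 4 groups overlapped. LPS raised Cd274 from 28.3 ± 2.33 to 872 ± 32.4 CPM (log2 fold change 4.95 ± 0.057, adjusted p = 1.12e-50). Dexamethasone lowered it without LPS (-1.22 ± 0.074, adjusted p = 1.13e-19) and, by more, in its presence (-2.58 ± 0.048, adjusted p = 3.26e-41), and the difference between these effects passed the test (-1.36 ± 0.090, adjusted p = 1.46e-18). The level with both agents was 16.7% of that with LPS alone but still 5.15-fold above control. Cd274 without WT LPS replicate 3 had log2 fold changes of 4.96 ± 0.054 for LPS in WT and -2.60 ± 0.046 for dexamethasone added to LPS, and the dexamethasone effects with and without LPS differed by -1.38 ± 0.090.

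In KO macrophages Cd274 followed WT in 3 of the 4 treatments. The KO libraries held 30.9, 28.8, 29.2 and 25.5 CPM without treatment, 11.1, 12.1, 11.96 and 11.3 CPM with dexamethasone and 933, 863, 953 and 847 CPM with LPS, ranges that overlapped those of WT. With both agents they held 599, 639.9, 645 and 561 CPM, all above the highest WT library of that group. KO exceeded WT there by 2.07 ± 0.048, adjusted p = 8.35e-37, or 4.198-fold, and with a lane term by 2.13 ± 0.14 (adjusted p = 5.11e-17). Dexamethasone still lowered LPS-induced Cd274 in KO (-0.56 ± 0.044, adjusted p = 8.14e-15), to 68.0% of the level with LPS alone. The dexamethasone effect differed between genotypes by 2.02 ± 0.065, adjusted p = 1.44e-30, and its size in KO was 21.6% ± 1.77 (SE) of that in WT. In KO the sign of the contrast between the dexamethasone effect with and without LPS was the opposite of WT, since the proportional fall was smaller with LPS than without it (0.74 ± 0.086, adjusted p = 6.03e-10). A transcript on the other strand, AC119228.1, overlaps 14.1% of the Cd274 exon bases and the counting ignored strand per the file header, so reads there cannot be assigned to a strand. AC119228.1 was counted at 36.96 ± 5.47 CPM in WT with LPS. The Cd274 genotype comparisons without WT LPS replicate 3 gave, on the log2 scale, 0.028 ± 0.043 for KO against WT with LPS, 0.018 ± 0.076 for the genotype difference of the LPS effect and 2.04 ± 0.060 for that of the dexamethasone effect under LPS.

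Pdcd1lg2, the gene for PD-L2, the other ligand of PD-1 and a neighbour of Cd274 on chromosome 19, was at the edge of detection. Its read pairs in the 4 WT libraries numbered 2, 2, 0 and 0 in control, 0, 0, 0 and 0 with dexamethasone, 9, 9, 5 and 15 with LPS and 7, 3, 5 and 6 with both. In KO they numbered 0, 7, 2 and 9 in control, 0, 1, 0 and 0 with dexamethasone, 7, 12, 13 and 5 with LPS and 3, 7, 8 and 9 with both. Most counts fell in libraries with LPS, and 1 of the 8 libraries with dexamethasone alone held any. Over the summed counts the LPS to control ratio was 9.82-fold (95% interval 3.54 to 37.9) in WT and 2.53-fold (95% interval 1.4 to 4.71) in KO, intervals that cover counting error only. The ratio of both agents to LPS alone was 0.519 (0.289 to 0.907) in WT and 0.672 (0.393 to 1.13) in KO. A fit without the filter did not call that WT difference (-0.93 ± 0.58, adjusted p = 0.249), nor the KO one (-0.55 ± 0.56, adjusted p = 0.625). The same fit gave 3.16 ± 0.75 on the log2 scale for LPS in WT (adjusted p = 9.83e-05). The KO value for LPS, 1.31 ± 0.59 (adjusted p = 0.0675), did not pass. In that fit dexamethasone alone against control was called in KO (-3.48 ± 1.02, adjusted p = 0.0041), on 1 against 18 read pairs. It was not called in WT (-3.23 ± 1.47, adjusted p = 0.111), on 0 against 4.

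Lgals9 encodes galectin-9, a secreted lectin that binds the receptor TIM-3 among others. WT libraries held 168, 181, 163 and 168 CPM in control, 119, 118, 116 and 115 CPM with dexamethasone, 350.3, 347, 369 and 348 CPM with LPS and 247, 253, 254 and 245 CPM with both. The groups did not overlap, and their order was the same as for Cd274 over a narrower range. LPS raised Lgals9 2.08-fold (1.06 ± 0.034, adjusted p = 1.11e-31), and dexamethasone lowered it by nearly the same factor without LPS (-0.54 ± 0.035, adjusted p = 1.77e-18) and with LPS (-0.50 ± 0.033, adjusted p = 1.22e-18). The difference between these WT effects, 0.037 ± 0.048, adjusted p = 0.535, did not pass the test. Lgals9 without WT LPS replicate 3 had log2 fold changes of 1.04 ± 0.033 for LPS in WT and -0.48 ± 0.033 for dexamethasone added to LPS, and the dexamethasone effects with and without LPS differed by 0.057 ± 0.046.

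In KO the Lgals9 libraries held 173, 165, 172 and 170.4 CPM in control, 122, 130.1, 121 and 123 CPM with dexamethasone, 330.3, 319.7, 326 and 347 CPM with LPS and 295, 306, 294 and 285 CPM with both. With either agent alone the genotypes were apart by less than the test could call, with KO minus WT at 0.085 ± 0.035, adjusted p = 0.348 for dexamethasone and -0.10 ± 0.033, adjusted p = 0.0521 for LPS. The group with both agents lay wholly above its WT counterpart (0.24 ± 0.033, adjusted p = 2.02e-08) and wholly below KO with LPS alone (-0.16 ± 0.033, adjusted p = 6.45e-05). The dexamethasone effect in the presence of LPS differed between genotypes by 0.34 ± 0.047, adjusted p = 3.71e-08. The Lgals9 genotype comparisons without WT LPS replicate 3 gave, on the log2 scale, -0.075 ± 0.033 for KO against WT with LPS, -0.079 ± 0.045 for the genotype difference of the LPS effect and 0.32 ± 0.045 for that of the dexamethasone effect under LPS.

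Fgl2 encodes fibrinogen-like protein 2, a secreted ligand of the inhibitory Fc receptor and, in its membrane form, a prothrombinase. Among the ligands it had the largest rise when dexamethasone was added to LPS in WT. WT libraries held 19.6, 19.2, 20.2 and 17.5 CPM in control, 10.5, 10.03, 10.5 and 11.2 CPM with dexamethasone, 12.3, 13.2, 7.70 and 12.3 CPM with LPS and 48.8, 47.1, 52.4 and 42.8 CPM with both. Each agent alone lowered Fgl2 in WT, with a log2 fold change of -0.86 ± 0.097, adjusted p = 1.31e-10 for dexamethasone and -0.75 ± 0.098, adjusted p = 2.15e-09 for LPS. Added to LPS, dexamethasone raised it 4.203-fold (2.07 ± 0.090, adjusted p = 5.81e-26), to 2.50 times the control mean, and all 4 libraries with both agents stood above all other WT libraries. The dexamethasone effect with LPS exceeded that without LPS by 2.93 ± 0.13, adjusted p = 8.63e-25. Replicate 3 was the lowest Fgl2 library with LPS. Fgl2 without WT LPS replicate 3 had log2 fold changes of -0.60 ± 0.088 for LPS in WT and 1.92 ± 0.080 for dexamethasone added to LPS, and the dexamethasone effects with and without LPS differed by 2.78 ± 0.11.

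KO macrophages held 20.1, 21.7, 23.2 and 21.5 CPM of Fgl2 in control, 14.9, 14.9, 16.4 and 18.4 CPM with dexamethasone, 20.7, 19.1, 20.5 and 23.2 CPM with LPS and 42.7, 39.7, 46.7 and 48.1 CPM with both. The KO libraries with either agent alone all lay above the WT libraries, while with both agents the genotypes overlapped. Fgl2 was higher in KO with dexamethasone (0.62 ± 0.098, adjusted p = 0.000102), also among lane 3 libraries alone (0.55 ± 0.11, adjusted p = 0.0054), and it was the member called in that comparison. With LPS the KO excess was 0.88 ± 0.098, adjusted p = 3.65e-09, and 0.62 ± 0.17 with a lane term, which ended the call (adjusted p = 0.0798). With both agents KO minus WT was -0.11 ± 0.076, adjusted p = 0.223. Dexamethasone raised Fgl2 in LPS-treated KO cells by 1.09 ± 0.083, adjusted p = 1.74e-15, less than in WT (KO minus WT -0.99 ± 0.12, adjusted p = 3.11e-09). LPS alone gave -0.055 ± 0.087, adjusted p = 0.578 in KO, which did not pass the test. The Fgl2 genotype comparisons without WT LPS replicate 3 gave, on the log2 scale, 0.73 ± 0.087 for KO against WT with LPS, 0.55 ± 0.11 for the genotype difference of the LPS effect and -0.84 ± 0.11 for that of the dexamethasone effect under LPS.

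Vsir encodes VISTA, a B7-family protein that acts as a ligand and as a receptor and is abundant on resting myeloid cells. Its order of levels was nearly the reverse of that of Cd274. WT libraries held 449, 438, 449 and 440.3 CPM in control, 763, 746, 746 and 736 CPM with dexamethasone, 217, 208, 210.0 and 195 CPM with LPS and 249, 238, 257 and 231 CPM with both. Dexamethasone alone raised Vsir 1.68-fold (0.75 ± 0.033, adjusted p = 5.23e-25) and LPS lowered it 2.14-fold (-1.09 ± 0.035, adjusted p = 4.52e-32), with no overlap between groups. In LPS-treated WT cells dexamethasone raised Vsir by 0.23 ± 0.035, adjusted p = 8.66e-08, a smaller effect than without LPS (-0.52 ± 0.048, adjusted p = 1.72e-13). Vsir without WT LPS replicate 3 had log2 fold changes of -1.10 ± 0.035 for LPS in WT and 0.24 ± 0.035 for dexamethasone added to LPS, and the dexamethasone effects with and without LPS differed by -0.52 ± 0.047.

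The KO levels of Vsir were 413 ± 12.5 CPM in control, 694 ± 21.98 CPM with dexamethasone, 236 ± 5.28 CPM with LPS and 236 ± 7.33 CPM with both. In control and with dexamethasone the KO libraries lay below those of WT, by amounts that were not called (-0.11 ± 0.033, adjusted p = 0.196 and -0.11 ± 0.033, adjusted p = 0.115). The groups with LPS overlapped in KO, and the dexamethasone effect there was 0.0027 ± 0.035, adjusted p = 0.964, against the rise in WT (KO minus WT -0.23 ± 0.049, adjusted p = 0.000125). With LPS alone all 4 KO libraries, 237, 242, 234 and 229.5 CPM, lay above the WT libraries (0.18 ± 0.035, adjusted p = 0.000201), and a lane term gave 0.22 ± 0.064 (adjusted p = 0.0928), no longer called. LPS lowered Vsir less in KO than in WT, by 0.29 ± 0.048, adjusted p = 8.68e-05 as a difference of effects, and this remained called with a lane term (0.35 ± 0.074, adjusted p = 0.0094). The Vsir genotype comparisons without WT LPS replicate 3 gave, on the log2 scale, 0.19 ± 0.035 for KO against WT with LPS, 0.29 ± 0.047 for the genotype difference of the LPS effect and -0.23 ± 0.048 for that of the dexamethasone effect under LPS.

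Among the receptors, Havcr2, the gene for TIM-3, which is bound by galectin-9 and acts in myeloid cells as well as T cells, behaved like Vsir under each agent alone. WT libraries held 36.1, 36.96, 40.3 and 38.02 CPM in control, 63.96, 67.95, 58.6 and 61.8 CPM with dexamethasone, 29.2, 25.3, 25.3 and 26.8 CPM with LPS and 28.7, 29.6, 29.4 and 27.4 CPM with both. Dexamethasone raised it (0.74 ± 0.053, adjusted p = 5.98e-17) and LPS lowered it (-0.50 ± 0.058, adjusted p = 8.83e-11). The groups with LPS overlapped, and adding dexamethasone gave 0.11 ± 0.060, adjusted p = 0.108 for WT cells and -0.048 ± 0.064, adjusted p = 0.605 for KO cells, neither of which passed the test. Havcr2 without WT LPS replicate 3 had log2 fold changes of -0.48 ± 0.062 for LPS in WT and 0.082 ± 0.064 for dexamethasone added to LPS, and the dexamethasone effects with and without LPS differed by -0.66 ± 0.082.

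KO libraries held 39.3, 41.8, 41.6 and 40.2 CPM of Havcr2 in control, 64.4, 67.3, 61.7 and 67.3 CPM with dexamethasone, 23.8, 21, 22.03 and 19.6 CPM with LPS and 19.5, 22.3, 20.2 and 21.6 CPM with both. The genotypes overlapped without LPS and were apart with it, KO being the lower. Under LPS the KO minus WT difference was -0.30 ± 0.063, adjusted p = 0.000526, and under both agents -0.46 ± 0.061, adjusted p = 8.21e-09. With a lane term the former was -0.37 ± 0.10 (adjusted p = 0.0818) and no longer called, the latter -0.52 ± 0.10 (adjusted p = 5.67e-05). The LPS effect itself differed between genotypes by -0.41 ± 0.083, adjusted p = 0.00119, and by -0.49 ± 0.12 (adjusted p = 0.0334) with a lane term. The Havcr2 genotype comparisons without WT LPS replicate 3 gave, on the log2 scale, -0.33 ± 0.067 for KO against WT with LPS, -0.44 ± 0.085 for the genotype difference of the LPS effect and -0.13 ± 0.090 for that of the dexamethasone effect under LPS.

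Lilrb4a, an inhibitory receptor of the leukocyte immunoglobulin-like family, was higher with dexamethasone in all 4 comparisons, least firmly in KO with LPS. WT libraries held 402, 373, 418 and 404 CPM in control, 562, 566, 617 and 584 CPM with dexamethasone, 348, 354, 316 and 377 CPM with LPS and 468, 423, 459 and 504 CPM with both. The rise was 0.54 ± 0.046, adjusted p = 1.71e-14 without LPS and 0.41 ± 0.046, adjusted p = 5.37e-11 with LPS, and LPS alone lowered the gene slightly with overlapping libraries (-0.20 ± 0.046, adjusted p = 0.000196). In KO the means were 401 ± 13.3, 547 ± 27.1, 337 ± 15.9 and 365 ± 17.2 CPM in the same order. The KO rise with dexamethasone in LPS-treated cells, 0.12 ± 0.047, adjusted p = 0.0443, came from overlapping libraries. It was lost with DESeq2 (0.088, adjusted p = 0.160) and when any of 5 of those 8 libraries was left out, KO with LPS replicates 1 and 3 and KO with both agents replicates 1, 2 and 4. The genotypes differed with both agents (-0.35 ± 0.046, adjusted p = 8.58e-09) and in the dexamethasone effect under LPS (-0.30 ± 0.066, adjusted p = 0.000194). Leaving out WT LPS replicate 3, the Lilrb4a log2 fold change was -0.15 ± 0.044 for LPS in WT, 0.37 ± 0.044 for dexamethasone added to LPS and -0.25 ± 0.060 for the genotype difference of that effect. The difference of the dexamethasone effects in WT was -0.13 ± 0.065, adjusted p = 0.0733 with that library and -0.18 ± 0.060, adjusted p = 0.00792 without it. KO minus WT without that library was -0.10 ± 0.044 with LPS and -0.10 ± 0.060 for the LPS effect.

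The Lilrb4a count carries an uncertainty from its neighbours. Of its 50-base stretches 47.2% also occur in other genes, 33.7% in Gm49339 and 26.1% in its close relative Lilr4b, and other annotated genes overlap 35.9% of its exon bases. Reads mapping to several places were not counted, going by the counting command in the file header. Gm49339 was below 1 CPM in every group mean, but it overlaps Lilrb4a exons on the same strand. Its low count therefore cannot tell how many reads the overlap cost Lilrb4a. Lilr4b had a profile of its own: with LPS in WT it was 720.1 ± 8.81 CPM and with both agents 504 ± 16.2 CPM, a fall (-0.51 ± 0.031, adjusted p = 4.6e-20) where Lilrb4a rose.

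Pirb encodes paired immunoglobulin-like receptor B, an inhibitory receptor that binds MHC class I and recruits phosphatases. It was the member that LPS and dexamethasone each raised and that was highest with both. WT libraries held 529.6, 516, 537 and 530.4 CPM in control, 624, 607, 635 and 629 CPM with dexamethasone, 831, 806, 772 and 833 CPM with LPS and 1272, 1256, 1294 and 1284 CPM with both, 4 ranges without overlap. LPS gave 0.62 ± 0.029, adjusted p = 1.2e-24, dexamethasone 0.24 ± 0.029, adjusted p = 1.07e-09 and dexamethasone in LPS-treated cells 0.65 ± 0.029, adjusted p = 1.54e-25, larger than without LPS by 0.41 ± 0.041, adjusted p = 1.76e-12. Pirb without WT LPS replicate 3 had log2 fold changes of 0.64 ± 0.028 for LPS in WT and 0.63 ± 0.028 for dexamethasone added to LPS, and the dexamethasone effects with and without LPS differed by 0.39 ± 0.037.

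KO libraries of Pirb held 881, 888, 924 and 921 CPM with LPS and 1052, 1013, 1028 and 1050.1 CPM with both, after 497 ± 12.5 CPM in control and 595 ± 10.6 CPM with dexamethasone. KO stood above WT with LPS (0.16 ± 0.029, adjusted p = 0.000122; 0.20 ± 0.056, adjusted p = 0.0809 with a lane term) and below WT with both agents (-0.30 ± 0.029, adjusted p = 7.55e-13), without overlap in either. Dexamethasone raised Pirb in LPS-treated KO cells by 0.20 ± 0.029, adjusted p = 1.69e-07, less than in WT (KO minus WT -0.46 ± 0.041, adjusted p = 1.57e-13). The Pirb genotype comparisons without WT LPS replicate 3 gave, on the log2 scale, 0.13 ± 0.028 for KO against WT with LPS, 0.22 ± 0.038 for the genotype difference of the LPS effect and -0.43 ± 0.037 for that of the dexamethasone effect under LPS. Of the 50-base stretches of Pirb 34% also occur in related activating receptor genes, Gm14548, Pira2, Lilra6 and Gm15922 the first among them. Pira2, an activating relative, went the other way with LPS in WT (-1.07 ± 0.048, adjusted p = 1.18e-25) and stood at 38.5 ± 2.96 CPM.

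Sirpa, whose product binds CD47 and gives the signal that restrains phagocytosis, was the most abundant member and the least variable. WT libraries held 2475, 2550.3, 2538 and 2602 CPM in control, 1775, 1736, 1758 and 1768 CPM with dexamethasone, 2437, 2470.4, 2298 and 2502 CPM with LPS and 1980.2, 2001, 2046 and 2029 CPM with both. Dexamethasone lowered it without LPS (-0.53 ± 0.028, adjusted p = 6.09e-22) and with LPS (-0.27 ± 0.028, adjusted p = 5.22e-12). The LPS effect in WT, -0.067 ± 0.028, adjusted p = 0.0295, came from overlapping libraries and was lost with DESeq2 (-0.046, adjusted p = 0.0763) and without WT control replicate 2 or 4 or WT LPS replicate 3 (-0.039 ± 0.026, adjusted p = 0.164). In the absence of that replicate dexamethasone added to LPS gave -0.29 ± 0.026, and its effects with and without LPS differed by 0.23 ± 0.035. In KO the LPS effect was 0.10 ± 0.028, adjusted p = 0.00103. Its sign depended on the scaling, since unscaled library totals gave -0.14 (adjusted p = 1.7e-05), and it was not called with a lane term (0.047 ± 0.056, adjusted p = 0.497).

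KO libraries of Sirpa held 2592, 2617, 2638 and 2667 CPM with LPS and 2429, 2428, 2416 and 2300.5 CPM with both agents. They stood above WT in each case, under LPS by 0.12 ± 0.028, adjusted p = 0.00372 and under both by 0.25 ± 0.028, adjusted p = 9.23e-11, the former not called with a lane term (0.064 ± 0.055, adjusted p = 0.79). The Sirpa genotype comparisons without WT LPS replicate 3 gave, on the log2 scale, 0.090 ± 0.026 for KO against WT with LPS, 0.14 ± 0.035 for the genotype difference of the LPS effect and 0.16 ± 0.035 for that of the dexamethasone effect under LPS. The activating relatives Sirpb1a, Sirpb1b and Sirpb1c, far less abundant, moved much more. In WT, Sirpb1c fell from 25.9 ± 2.13 CPM with LPS to 1.54 ± 0.639 CPM with both agents (-4.07 ± 0.15, adjusted p = 4.27e-29), and in KO from 32.4 ± 3.26 to 20.1 ± 1.56 CPM (-0.69 ± 0.097, adjusted p = 6.68e-08). No 50-base stretch of Sirpa occurs in another gene of the transcript set searched.

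Tarm1 encodes a myeloid receptor that signals through the Fc receptor gamma chain and is activating, unlike the other receptors here. It was nearly absent without LPS. WT libraries held 0, 0, 1 and 0 read pairs in control and 15, 5, 6 and 24 with dexamethasone, and 200.2, 199.8, 211 and 196 CPM with LPS and 21.8, 23.4, 20.7 and 21.4 CPM with both. Over summed counts the LPS level was 15800-fold (95% interval 2830 to 622000) above control, the interval covering counting error only. With dexamethasone alone the WT total was 50 read pairs against 1 in control, a ratio of 44.8 (95% interval 7.67 to 1800), and the KO total 35 against 5, a ratio of 7.55 (2.95 to 24.7). The rise without LPS was called for WT (4.94 ± 0.81, adjusted p = 9.98e-07) and also for KO (2.79 ± 0.65, adjusted p = 0.000302), to levels of 0.582 ± 0.406 and 0.414 ± 0.128 CPM, so these fitted changes depend on the prior count and are no bounds.

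In LPS-treated WT cells dexamethasone lowered Tarm1 9.21-fold (-3.20 ± 0.066, adjusted p = 1.35e-39), to 10.8% of the level with LPS. KO libraries held 183, 178, 179 and 183 CPM with LPS and 118, 123, 122 and 102 CPM with both agents, so 64.4% remained (-0.63 ± 0.055, adjusted p = 1.34e-13). With both agents KO exceeded WT by 2.41 ± 0.066, adjusted p = 1.29e-33 without overlap, and by 2.22 ± 0.64 (adjusted p = 0.005) with a lane term. For Tarm1 the lane term is poorly set, since KO libraries with dexamethasone, 1 of which it rests on, held 0.226 to 0.512 CPM. The dexamethasone effect differed between genotypes by 2.57 ± 0.086, adjusted p = 8.98e-30. With LPS alone KO was slightly lower (-0.16 ± 0.054, adjusted p = 0.0498), a call that was lost with RLE size factors, with a lane term (-0.35 ± 0.68, adjusted p = 0.936) and when any of WT LPS replicates 1 to 3 or any of the 4 KO LPS libraries was left out. Leaving out WT LPS replicate 3, it was -0.14 ± 0.053, adjusted p = 0.108, while dexamethasone added to LPS in WT gave -3.18 ± 0.063 and the genotype difference of that effect was 2.55 ± 0.081.

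**Figure D2:**
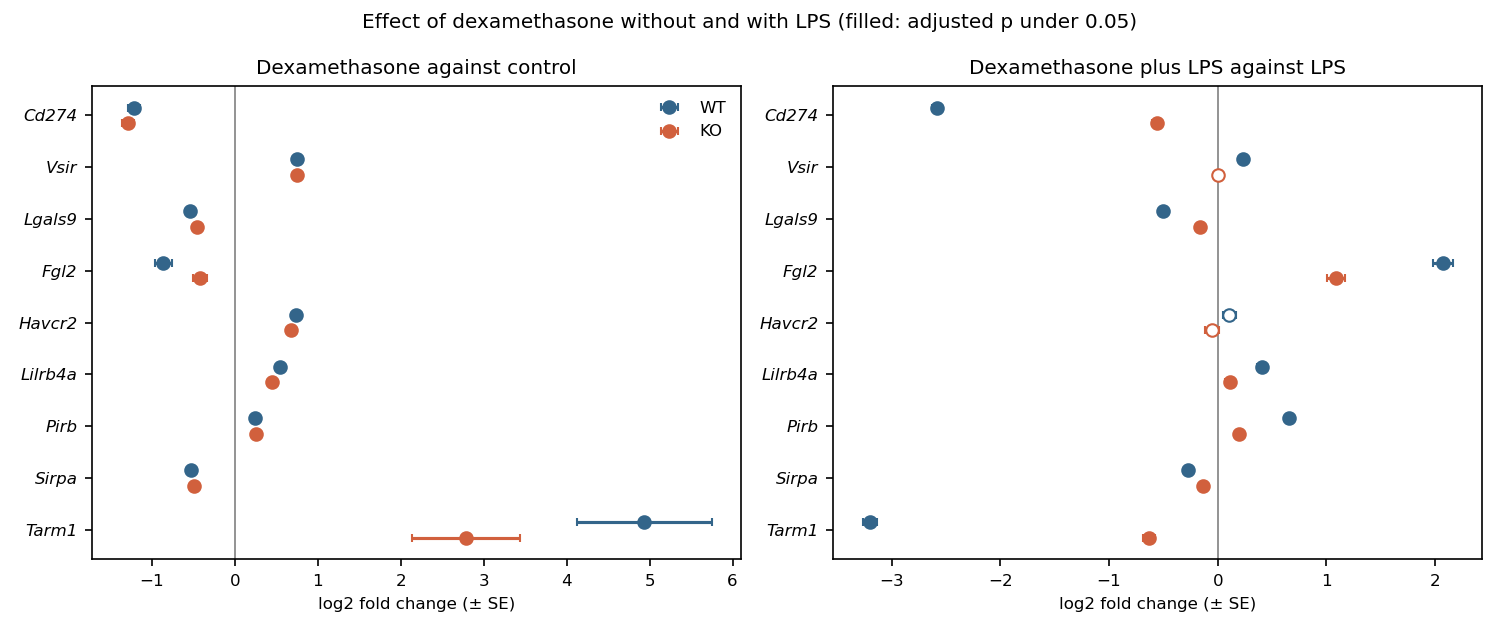
Effect of dexamethasone (log2 fold change, error bars SE, filled points called) without LPS in the left panel and with LPS in the right, in WT and KO, for the 9 tested members. In the right panel the KO value of Cd274 (-0.56) and Tarm1 (-0.63) lies much nearer 0 than the WT value (-2.58 and -3.20), and Fgl2 rises in both genotypes.

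Set against each other per kb of exon, Sirpa was the most abundant member in all 8 groups, with 517 CPM per kb in WT control. In WT control the next were Pirb at 118, Vsir at 88.5, Lgals9 at 79.5 and Lilrb4a at 76.4 CPM per kb, followed by Havcr2 at 13.9 and Cd274 at 7.80 CPM per kb. With LPS, WT Cd274 stood second at 241 CPM per kb and Tarm1, the least abundant in control, reached 97.6 CPM per kb. With both agents in WT, Cd274 was at 40.2 and Tarm1 at 10.6 CPM per kb, below Pirb, Lgals9, Lilrb4a and Vsir. In KO with both agents Cd274 was at 169 CPM per kb and again above Lgals9 and Lilrb4a. The exon length includes sequence shared with other genes, where reads may not have been counted. Of the 50-base stretches 47.2% were shared for Lilrb4a, 34% for Pirb and 12.4% for Cd274, against 0% for Vsir, Lgals9 and Sirpa. The per-kb levels of Lilrb4a, Pirb and Cd274 may thus be too low, and the order of close values such as Lgals9 and Lilrb4a in WT control is not settled.

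**Figure D3:**
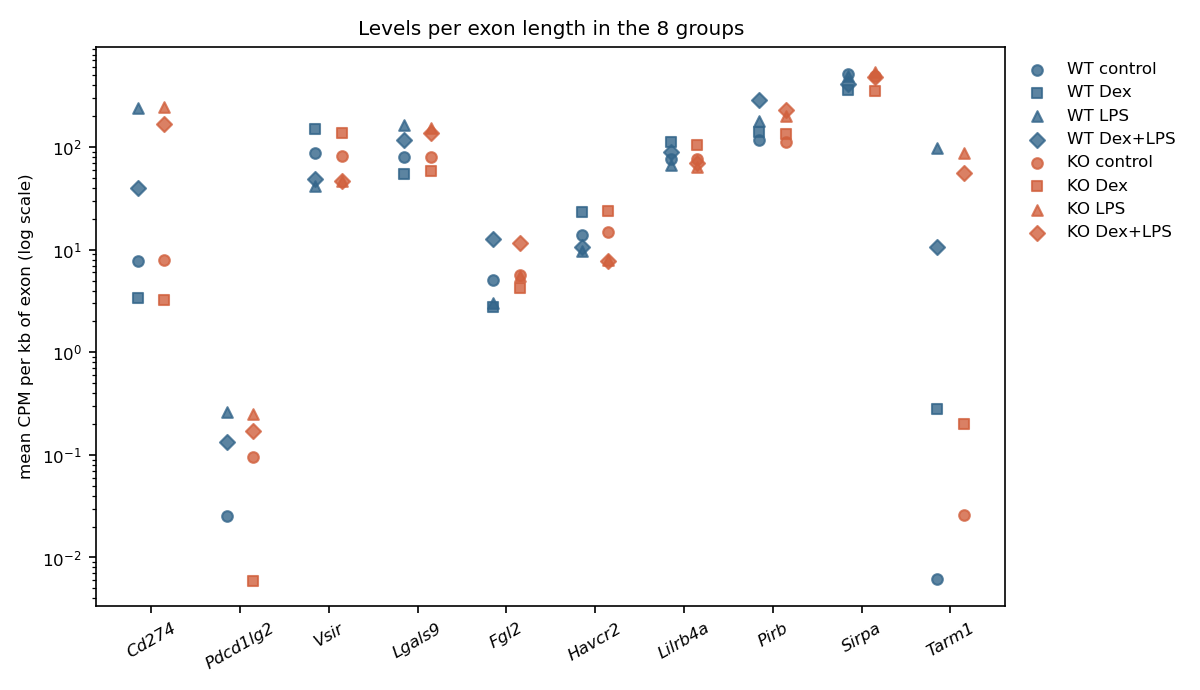
Mean level per kb of exon (log axis) of the 10 members, 1 point for each of the 8 groups; Pdcd1lg2 in WT with dexamethasone is at 0 and not drawn. Sirpa is the highest in all 8 groups, and Cd274 and Tarm1 change rank most between control and LPS. Sequence shared with other genes may lower the values of Lilrb4a, Pirb and Cd274.

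Ordered by group mean, neighbouring groups overlapped least often for Lgals9 and Pirb, in 1 of 7 steps each, and most often for Pdcd1lg2, in all 7. Groups without overlap were common among all tested genes too, as the shares given above show. Cd274 was highest in KO with LPS and lowest in KO with dexamethasone, a 77.4-fold range, and 3 of its 7 steps overlapped: the genotypes with LPS, in control and with dexamethasone. Vsir and Lilrb4a were highest in WT with dexamethasone, and Havcr2 in KO with dexamethasone. Lgals9, Tarm1 and Pdcd1lg2 were highest in WT with LPS, Sirpa in KO with LPS, and Fgl2 and Pirb in WT with both agents.

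Counted over comparisons, the tested members were called often, but so were other genes. In WT, LPS changed 9 of the 9 tested members (4 higher, 5 lower) against 75.7% of all tested genes (37.4% higher, 38.3% lower). Dexamethasone alone changed 9 (5 higher, 4 lower) against 49.4% of all tested genes (21.2% higher, 28.2% lower), and dexamethasone in LPS-treated cells 8 (4 higher, 4 lower) against 69.2% of all tested genes (34.6% higher, 34.5% lower). LPS in dexamethasone-treated WT cells changed 9 (6 higher, 3 lower) against 73.3% of all tested genes (35.5% higher, 37.8% lower). In KO, LPS changed 8 of 9 (5 higher, 3 lower) against 76.1% of all tested genes (36.8% higher, 39.3% lower). Dexamethasone alone changed 9 in KO (5 higher, 4 lower) against 48.5% of all tested genes (20.9% higher, 27.6% lower), and in LPS-treated cells 7 (3 higher, 4 lower) against 38.1% of all tested genes (20.8% higher, 17.3% lower). LPS in dexamethasone-treated KO cells changed 9 (6 higher, 3 lower) against 75.9% of all tested genes (38.5% higher, 37.4% lower). The dexamethasone effect with LPS differed from that without it for 7 members in WT (3 higher, 4 lower) against 60.4% of all tested genes, 28.4% of the tested genes being lower, and for 8 in KO (4 higher, 4 lower) against 41.8% of all tested genes (25.7% higher, 16.2% lower). In the WT comparisons with LPS most of the tested genes were called as well, and Tarm1 was tested only because LPS raised it. Tarm1 is also among the members called higher with dexamethasone alone, on 50 against 1 read pairs in WT and 35 against 5 in KO. Its differences of the dexamethasone effect with and without LPS use the same low counts.

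**Figure D4:**
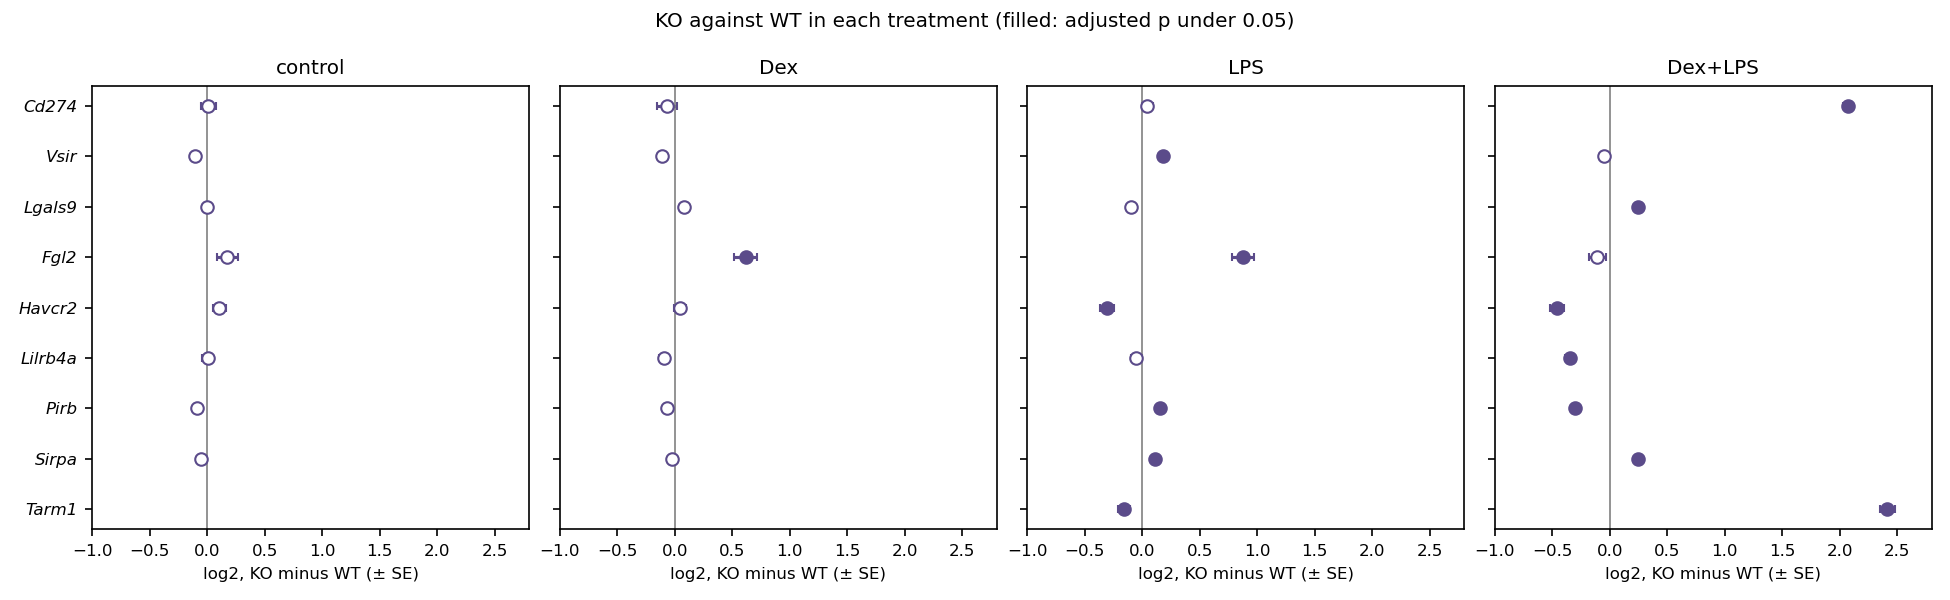
KO minus WT difference (log2 fold change, error bars SE, filled points called) of the 9 tested members in each of the 4 treatments; Tarm1 is left out without LPS, where its counts are near 0. Without LPS the called point is Fgl2 with dexamethasone (0.62), and the points farthest from 0 are Cd274 (2.07) and Tarm1 (2.41) with both agents.

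Between genotypes the counts depended on the treatment. In control 0 of 9 tested members were called by edgeR, against 0.541% of all tested genes (0.243% higher, 0.298% lower), with 3 members at an unadjusted p under 0.05 and 0 called by DESeq2. With dexamethasone Fgl2 was the 1 member called, against 0.901% of all tested genes (0.541% higher, 0.360% lower), and DESeq2 called 2. With LPS 6 of 9 were called (4 higher and 2 lower in KO) against 10.2% of all tested genes (4.66% higher, 5.51% lower). A lane term took that member count to 0 and the count over all genes from 1468 to 112. Where member values with a lane term are given above, their SE was larger than without it. With both agents 7 of 9 were called (4 higher, 3 lower) against 56.4% of all tested genes (28.5% higher, 27.9% lower). With a lane term these were also 7 members, while the count over all genes went from 8137 to 4834. The LPS effect differed between genotypes for 5 of 9 members (4 higher, 1 lower as KO minus WT) against 3.72% of all tested genes (2.07% higher, 1.64% lower). A lane term left 3 members, and the count over all genes went from 536 to 113. The dexamethasone effect without LPS differed for 0 members by edgeR, against 0.00% of all tested genes (0.00% higher, 0.00% lower), with 1 member and 617 genes at an unadjusted p under 0.05 and 0 genes called by DESeq2. The dexamethasone effect under LPS differed for 8 of 9 members (4 higher, 4 lower as KO minus WT) against 45.4% of all tested genes (23.9% higher, 21.5% lower).

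For the 8 members whose level dexamethasone changed in LPS-treated WT cells, the effect was smaller in KO in all 8. Its sign was the same in 7, while for Vsir the KO effect was near 0 and its sign depended on the scaling (0.0027 with TMM, -0.02493 with RLE). The KO effect was between 1.19% (Vsir) and 52.4% (Fgl2) of the WT effect on the log2 scale, with a median of 29.1%. Over the 9978 genes called in WT the effect was smaller in KO for 98.4%, with a median of 34.1%, so a weaker response in KO was not particular to these members. Cd274 and Tarm1 combine it with the largest WT falls among the members, which left 68.0% and 64.4% of the LPS level in KO against 16.7% and 10.8% in WT.

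The likeness of profiles was measured by Pearson's r of log2(CPM + 1) over the 32 libraries, which share treatments and genotypes, and is a description. The genes most like Cd274 were Orai2 (0.998), H2-K1 (0.997) and Antxr1 (0.996), and for Tarm1 they were Pgam1 (0.998), Il1a (0.998) and Tnfrsf1b (0.997), among 11860 protein-coding genes compared. Gbp2 (0.995), Uchl1 (0.994) and Cd14 (0.993) were nearest to Lgals9, Ap1b1 (0.995), Osbpl11 and Myo5a (0.992 each) to Vsir, and Ncf1 (0.995), Rhoq (0.994) and Mras (0.992) to Pirb. Sirpa was most like Cd74 (0.978), Ifit3 (0.977) and H2-Aa (0.976), Havcr2 most like Hmga2 (0.976), Alox5ap (0.974) and Ccdc85c (0.969), and Lilrb4a most like Mast3 (0.965), Serpinb8 (0.954) and Rpgrip1 (0.952). Fgl2 had no gene above 0.95, the nearest being Tmem176b (0.924), Phlpp1 (0.908) and Galnt7 (0.893), and neither had Pdcd1lg2 at its low counts, the nearest being Kctd9 (0.866), Ap3b1 (0.859) and Mast2 (0.857). Such closeness is common in this design, since 709 genes reached 0.95 with Cd274 and 732 with Tarm1. Within the members, Cd274 ran with Lgals9 (0.982) and Tarm1 (0.973) and against Vsir (-0.939) and Havcr2 (-0.931), while Vsir and Havcr2 ran together (0.953).

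Genes related to the members were counted in 6 lists, and a gene in more than 1 list counts in each. Among all tested genes, LPS in WT called 37.4% higher and 38.3% lower, dexamethasone added to LPS 34.6% higher and 34.5% lower in WT and 20.8% higher and 17.3% lower in KO. The list counts are descriptions to be read against these shares, and no list was tested. Of 15 tested ligands and costimulators, 8 rose and 4 fell with LPS in WT, and 6 rose and 8 fell when dexamethasone was added, as did 34.6% and 34.5% of all tested genes (median log2 fold change -0.57, against 0.0071 over all tested genes). Cd80 and Cd86, the classical costimulators, parted: Cd86 fell from 28.5 ± 1.86 to 4.48 ± 0.143 CPM in WT (-2.67 ± 0.10, adjusted p = 1.31e-28) while Cd80, which also binds PD-L1 on the same cell, rose from 7.83 ± 1.67 to 20.995 ± 2.25 CPM (1.42 ± 0.12, adjusted p = 1.12e-14). Cd200, the ligand of another myeloid inhibitory receptor, fell from 31.7 ± 2.87 to 0.335 ± 0.104 CPM in WT (-6.54 ± 0.15, adjusted p = 4.84e-37) and stood at 26.6 ± 2.51 CPM in KO with both agents. Pvr, a ligand of TIGIT, went from 169 ± 13.5 to 28.7 ± 2.45 CPM in WT and Lgals3, galectin-3, from 2982 ± 237 to 753 ± 11.7 CPM, while Cd48 rose (0.56 ± 0.039, adjusted p = 6.53e-18).

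Of 16 tested partners of the members, 6 rose and 10 fell when dexamethasone was added to LPS in WT (all tested genes 34.6% and 34.5%, median -0.29), and 4 rose and 8 fell in KO (20.8% and 17.3%, median -0.076, against -0.0020 over all genes). Cd47, the ligand of Sirpa's product, rose slightly (0.23 ± 0.036, adjusted p = 1.98e-07) and Fcgr2b, the inhibitory Fc receptor that binds Fgl2's product, rose as well (0.28 ± 0.036, adjusted p = 1.87e-09) after an LPS rise from 49.2 ± 1.55 to 341 ± 9.33 CPM. Thbs1, thrombospondin, which also binds CD47, fell (-3.51 ± 0.068, adjusted p = 1.66e-40), and so did Angptl2, a ligand of Pirb's product (-4.88 ± 0.079, adjusted p = 9e-44), and P4hb, a disulfide isomerase bound by galectin-9 (-0.29 ± 0.029, adjusted p = 6.13e-13).

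All 20 tested genes of the other inhibitory myeloid receptors were called for dexamethasone in LPS-treated WT cells, 10 in each direction, where 69.2% of all tested genes were, with Siglece rising (1.15 ± 0.046, adjusted p = 2.03e-27), Pilra rising (0.80 ± 0.048, adjusted p = 3.28e-20) and Cd300a falling (-2.33 ± 0.12, adjusted p = 1.99e-23). Of 19 tested activating receptors 6 rose and 9 fell, against the same 34.6% and 34.5% of all tested genes. Cd300lb fell (-2.03 ± 0.053, adjusted p = 5.03e-35), as did Trem2 (-0.72 ± 0.057, adjusted p = 7.67e-16) and Clec4d (-0.34 ± 0.037, adjusted p = 1.36e-11), while Clec4e, at 5182 ± 304 CPM with LPS, gave -0.048 ± 0.035, adjusted p = 0.226.

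Of 16 tested adaptors, kinases and phosphatases 12 rose and 2 fell with dexamethasone in LPS-treated WT cells (34.6% and 34.5% of all tested genes, median 0.57), and 9 rose and 2 fell in KO (20.8% and 17.3%, median 0.20). Ptpn6, the phosphatase SHP-1 recruited by Pirb and Sirpa products, rose from 212 ± 19.6 to 499.9 ± 5.41 CPM in WT (1.24 ± 0.043, adjusted p = 9.28e-30) and to 324 ± 12.9 CPM in KO, where LPS alone gave 237 ± 17.8 CPM. Fcer1g, the adaptor of Tarm1's product, rose slightly (0.15 ± 0.030, adjusted p = 1.64e-05), Tyrobp rose (0.58 ± 0.036, adjusted p = 9.07e-20), and the kinase gene Fgr went from 2.41 ± 0.686 to 146 ± 7.26 CPM. Syk gave 0.017 ± 0.027, adjusted p = 0.59 and Inppl1 fell (-1.43 ± 0.042, adjusted p = 6.08e-33).

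Of 21 tested interferon and JAK-STAT genes, which include known inputs to Cd274, 16 rose and 5 fell with LPS in WT (37.4% and 38.3% of all tested genes), and 3 rose and 16 fell when dexamethasone was added (34.6% and 34.5%, median -0.59). In KO 2 rose and 15 fell (20.8% and 17.3%, median -0.18). Irf1, which encodes an interferon-induced transcription factor, fell in WT (-1.12 ± 0.058, adjusted p = 7.27e-23) and less in KO (KO minus WT 0.82 ± 0.080, adjusted p = 2.31e-12), as did Jak2 (0.82 ± 0.053, adjusted p = 1.5e-18), Socs1 (2.39 ± 0.11, adjusted p = 2.67e-24) and Socs3 (0.89 ± 0.077, adjusted p = 7.2e-14), while Il6ra rose with dexamethasone in WT (1.04 ± 0.045, adjusted p = 4.9e-26) and did so less in KO (-0.65 ± 0.064, adjusted p = 3.65e-12).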

How the data were processed

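Gene counts of 32 RNA-seq libraries from bone marrow-derived macrophages, 4 for each of 8 genotype and treatment groups, were used. The deposited values are raw read-pair counts per gene: featureCounts 2.0.0 was run over exons of GENCODE vM32, in pairs and without strand, per the file headers, and the submitters' processing notes name STAR and the builds GRCm38 and mm10. The version of STAR is not given in the sources used here. In the counted annotation Cd274 starts at 29344855 on chromosome 19, while its GRCm38.p6 stretch printed above ends at 29367437. The printed stretches and the counted genes therefore do not share coordinates. Depth was 17559079 to 25049200 counts per library. The 50-base stretches shared between genes were searched in transcripts of an earlier GENCODE release than the vM32 that was counted.

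Counts were tested with edgeR 4.0.16 (limma 3.58.1, R 4.3.3): filterByExpr with a minimum count of 10, TMM factors, 8 group means fitted together with 24 residual degrees of freedom, the quasi-likelihood F test, and Benjamini-Hochberg adjustment over 14427 genes in each of 17 comparisons. SE is the size of the log2 fold change over the square root of F. DESeq2 1.42.0, RLE and no scaling, no filter, a threshold of 0.01, a lane term, lane 3 alone, only the groups compared, leaving out each library and a replicate block were alternatives. Of the identifiers 4924, with 0.846% of counts, had no symbol and stayed in library sizes and tests. The fit was first tested on simulated data.

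Within groups, counts of replicates differed by more than sampling noise (chi-square per degree of freedom 2.01 to 5.57, and 16.1 to 16.7 for pairs with WT LPS replicate 3). Ratios of low counts have exact 95% intervals. The 10 members and the lists of related genes were chosen with earlier results of these data known. From each list of related genes up to 4 with the smallest adjusted p for LPS, or for dexamethasone added to LPS, in WT are named, beside partners of the members, the paralogs of 3 receptors and the 3 genes most like each member. Of those partners, 1 is not reported here.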

Additional observations from a re-analysis of the deposited data

Results flagged for a closer look

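In 5 of 80 groups of 4 libraries, 1 library lay far from the other 3, by a gap beyond Dixon's 95% critical value, which chance gives in about 1 group in 20. Fgl2 in WT with LPS was 7.70 CPM in replicate 3 against 12.3 to 13.2 CPM in the others. Lgals9 in the same library was 369 CPM against 347 to 350.3 CPM. Sirpa in KO with both agents was 2300 CPM in replicate 4 against 2416 to 2429 CPM. A single read pair set 2 of them apart from libraries at 0: Tarm1 at 0.0513 CPM in WT control replicate 3 and Pdcd1lg2 at 0.0467 CPM in KO with dexamethasone replicate 2.

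For 13 member effects the test of the difference between genotypes passed. The LPS effect differed, as KO minus WT on the log2 scale, for Vsir (0.29), Fgl2 (0.70), Havcr2 (-0.41), Pirb (0.24) and Sirpa (0.17), in which KO with LPS and lane 2 coincide. The dexamethasone effect in LPS-treated cells differed for Cd274 (2.02), Tarm1 (2.57), Lgals9 (0.34), Sirpa (0.13), Vsir (-0.23), Fgl2 (-0.99), Lilrb4a (-0.30) and Pirb (-0.46), and each genotype's effect lies within 1 lane.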

How the results depend on the processing

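Counts of members called were within 1.5 times the reported ones under all alternatives run except these: with a lane term 0 instead of 6 for KO against WT with LPS and 3 instead of 5 for the genotype difference of the LPS effect, and 2 instead of 1 for KO against WT with dexamethasone by DESeq2 and in fits of only the groups compared. Counts over all genes moved further where few were called. For KO against WT in control (78 genes) they were 137 without the filter, 38 at an adjusted p under 0.01, 121 with only the groups compared, and 47 to 73 when 1 library was left out. With dexamethasone (130) they were 201, 62 and 401 under those settings, 75 with a lane term, 82 in lane 3 alone, and 69 to 119 with 1 library left out. With LPS (1468) they were 829 at an adjusted p under 0.01, 667 with only the groups compared and 112 with a lane term, and with both agents (8137) 4834 with a lane term. The genotype difference of the LPS effect (536) gave 260, 314 and 113 in that order, and that of the dexamethasone effect (0) gave 6 without the filter, 1 with only the groups compared and 0 to 3 with 1 library left out. The cause was not tested.

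The sign of 1 called value turned: Sirpa for LPS in KO was -0.1384 with unscaled totals, where the median of all genes was -0.272 against -0.0319 with TMM. The other reversals were of uncalled values. These were near 0 except that of Tarm1 for KO against WT with dexamethasone, which rested on 35 against 50 read pairs. Lgals9 for KO against WT in control was -0.001881 with RLE, -0.00147 without the filter, -0.005428 with a lane term, -0.0002006 with only the groups compared, -0.01241 in lane 3 and -0.00194 by DESeq2, and -0.01666 to 0.0355 with 1 library left out. Cd274 there was -0.02557 with a lane term, -0.03261 in lane 3 and -0.037 to 0.0665 with 1 library left out, and Lilrb4a -0.02386 to 0.02962. Vsir for dexamethasone added to LPS in KO was -0.02493 with RLE, -0.02498 by DESeq2 and -0.01684 to 0.01668 with 1 library left out, and Havcr2 -0.08947 to 0.002196. For KO against WT with dexamethasone, leaving out 1 library gave Cd274 -0.1232 to 0.0003213 and Tarm1 -0.8051 to 0.03442. Genotype differences gave Cd274 -0.02136 to 0.0821 for LPS, and for dexamethasone Pirb -0.001118 to 0.02762 and Vsir -0.02563 to 0.01483, with 0.0252 for Vsir with a lane term.

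With the replicate number as a block, members called were 9 for LPS in WT and 7 for KO against WT with both agents, as without it, and the block changed no member's call. Deviations from the group means correlated weakly between libraries of the same number (-0.052 to 0.096, 0 of 112 pairs over 0.1). Yet 25 of 32 libraries were closest to their own number, so whether the numbers pair libraries is not settled. On unscaled totals 57 of 80 member levels moved by over 1 SD, the median of all genes for LPS in WT was -0.278 against -0.0196 with TMM, and Fgl2 for LPS in KO became called (-0.30, adjusted p = 0.00246). Depth limits Pdcd1lg2, with 0 to 38 counts per group, and Tarm1 without LPS.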
